A study of Mus musculus with 12 samples.

Results

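The RNA of 10 cytokine ligand genes was followed in Ba/F3, an established mouse line of pro-B cells whose growth needs interleukin-3 (IL-3) unless an oncogene takes its place. The genes were taken by symbol: Il3, Csf2, Csf1, Flt3l, Osm, Lif, Il6, Tgfb1, Tslp and Il4. All 10 were found, through their mouse Ensembl identifiers, among the 55471 genes of the count table. The MSCV group held 4 lines that carry the empty retroviral vector and were grown with 0.5 ng/ml mouse IL-3. The BCR-ABL1 group and the SFPQ-ABL1 group held 4 lines each, carrying BCR or SFPQ joined to the tyrosine kinase ABL1 and kept without IL-3. Every group derives from the same established cell line, the labels describe the lines as biologically independent, and RNA came from cultures in exponential growth. In both comparisons with MSCV the fusion and the missing IL-3 cannot be told apart. SFPQ-ABL1 against BCR-ABL1 is the comparison without that difference.

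Cytokines are secreted or membrane-held proteins through which blood and stromal cells tell each other to survive, divide or mature. Each acts only on cells that carry its receptor, usually a private chain paired with a chain shared within a family. IL-3 and GM-CSF use a common beta chain and signal through JAK2 and STAT5, and oncostatin M, LIF and IL-6 share gp130. A cell that makes both a ligand and its receptor can stimulate itself, and in cells that have become independent of IL-3 the first ligand to look for is IL-3.

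The 12 libraries held between 59355018 and 80616227 gene counts. Levels are given in counts-per-million units (CPM) of the library size scaled by the trimmed mean of M-values, so that 1 CPM stood for 61.15 to 82.2 counts. The floor, 3 counts in a library, lay between 0.0365 and 0.0491 CPM and covers counting error only. A pair of lines stood apart on exons of the fusion partners in the exon table. SFPQ-ABL1 line 2 had 332 counts on exon 9 of Sfpq, where the other lines of its group had 1033 to 1379. It had 330 on exon 9 of Abl1, where they had 1268 to 1683. BCR-ABL1 line 4 had 148 counts on exon 3 of Abl1, where the other lines of its group had 271 to 293. The other way round, it had 1396 on exon 9 of Abl1, where they had 681 to 862. On exon 9 of Sfpq it had 241, where they had 105 to 146. Of 9 early B cell markers, 3 passed the filter on low counts, Cd79a, Cd79b and Vpreb1. All 3 were called lower in BCR-ABL1 against MSCV, where 32.1% of all genes tested were called, 15.8% as higher and 16.3% as lower. In SFPQ-ABL1 against BCR-ABL1 all 3 were called higher, where 26.0% of all genes were called, 13.2% as higher and 12.8% as lower. The defining genes Ebf1, Pax5, Rag1 and Il7r held at most 23 counts each over all 12 lines. The 9 summed to 130 to 152 CPM in MSCV lines, 49.1 to 71.9 in BCR-ABL1 lines and 85.1 to 98.7 in SFPQ-ABL1 lines. Of the stromal markers, only Col1a1 passed the filter, and the summed level of the 8 markers lay between 0.308 and 1.32 CPM in all lines. The 8 T and NK cell markers summed to 3.88 to 14.4 CPM in MSCV lines, 0.516 to 2.75 in BCR-ABL1 lines and 2.95 to 5.02 in SFPQ-ABL1 lines, with Cd8a and Ncr1 at 0 everywhere. The 3 that were tested, Cd3d, Cd3g and Cd5, were called lower in BCR-ABL1 against MSCV and higher in SFPQ-ABL1 against BCR-ABL1. The 8 macrophage and monocyte markers summed to 115 to 131 CPM in MSCV lines, 132 to 296 in BCR-ABL1 lines and 78.1 to 178 in SFPQ-ABL1 lines, with C1qa at 0 and Csf1r below 1 CPM in every line. Itgam, 1 of the 6 tested, was called higher in BCR-ABL1 against MSCV (0.225 ± 0.139 to 1.34 ± 0.746 CPM, SD, n = 4, adjusted p = 0.0162). Adgre1, at 31.0 ± 14.2 and 81.8 ± 52.3 CPM, did not pass (adjusted p = 0.0916). The 8 mast cell and basophil markers summed to 13.8 to 30.9, 8.24 to 55.3 and 9.15 to 13.9 CPM in the same order of groups, with Tpsb2 at 0 everywhere and Kit at 1 count in all. Of the 3 tested, Cpa3 was called higher in BCR-ABL1 against MSCV (0.209 ± 0.165 to 13.1 ± 19.5 CPM, SD, n = 4, adjusted p = 0.00762), and Ms4a2 and Cma1 were called lower (adjusted p = 0.000596 and 0.0204). In SFPQ-ABL1 against BCR-ABL1, 1 macrophage and monocyte marker was called lower. Of the mast cell and basophil markers, 1 was called higher and 1 lower there. In SFPQ-ABL1 against MSCV, where 1.79% of all genes were called, 1 early B cell marker was called lower and no other marker was called. The part of these markers in the cytokine differences below was not tested. In bulk RNA, fewer cells making a cytokine and less RNA per cell cannot be told apart.

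Cytokine genes stood at very unequal levels, and BCR-ABL1 lines held more RNA of several of them than vector lines. Of the 10 genes, 8 passed the filter on low counts and were tested with edgeR's quasi-likelihood test among 17197 genes, and Il3 and Csf2 were too low to test. In BCR-ABL1 against MSCV, 4 of the 8 rose (Csf1, Flt3l, Osm and Tgfb1) and Tslp fell, where 32.1% of all genes tested were called, 15.8% as higher and 16.3% as lower. The median log2 fold change of the 8 was 0.95 against -0.01 over all genes. In SFPQ-ABL1 against MSCV, edgeR called 0 of the 8, where 1.79% of all genes were called, 0.814% as higher and 0.977% as lower. There, 3 of the 8 had an unadjusted p under 0.05, and DESeq2 and limma-voom each called 1, Tslp. In SFPQ-ABL1 against BCR-ABL1, Csf1, Flt3l and Tgfb1 were lower and Il4 was higher, where 26.0% of all genes were called, 13.2% as higher and 12.8% as lower. The 3 comparisons share groups, so they are not independent of each other. Without SFPQ-ABL1 line 2 and BCR-ABL1 line 4 together, every one of these calls was kept, and Tslp also passed in SFPQ-ABL1 against BCR-ABL1 (log2 fold change 1.12, adjusted p = 0.0324).

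**Figure D1:**
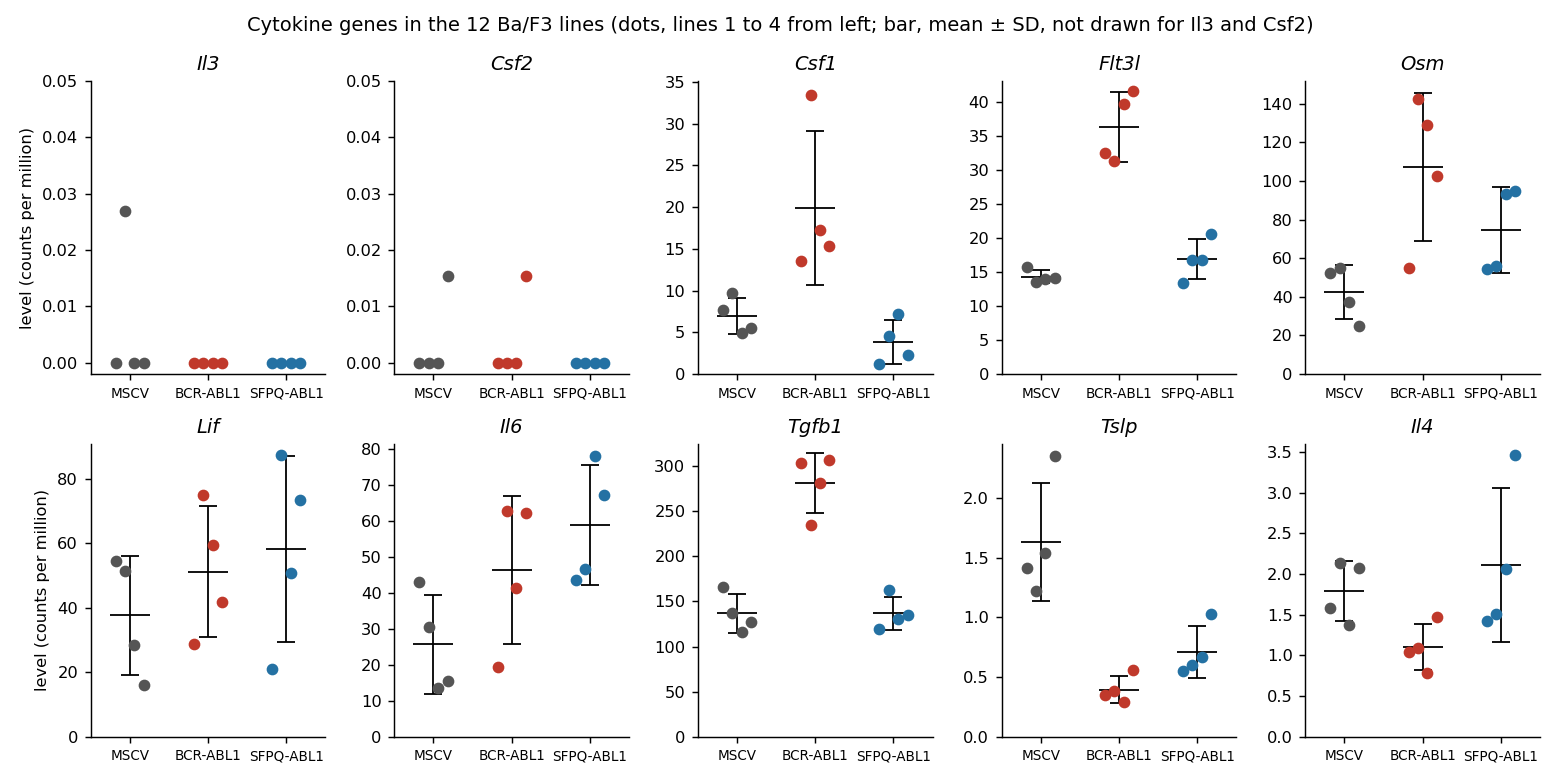
Level of each cytokine gene (CPM, vertical axis, scale differs by gene) in the 4 lines of each group, with dots for lines 1 to 4 from left to right and a bar for the mean ± SD. Flt3l and Tgfb1 in the 4 BCR-ABL1 lines sit above all other lines, and Il3 is at 0 in the 8 fusion lines.

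**Figure D2:**
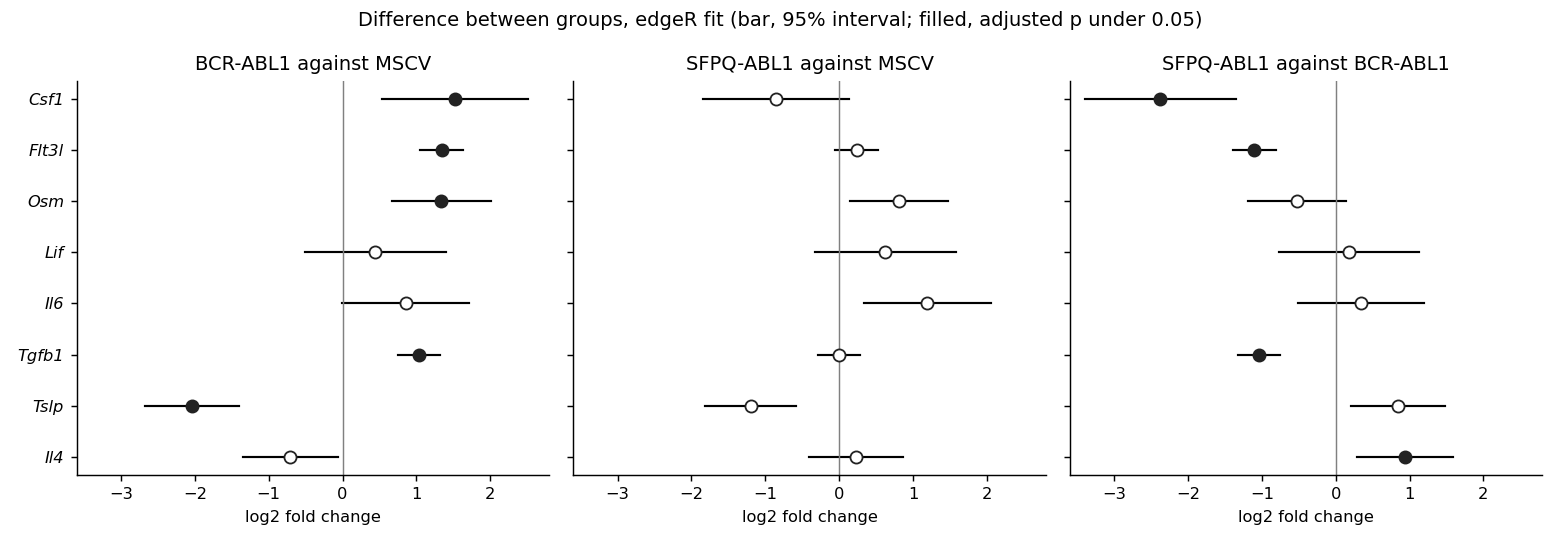
Log2 fold change (horizontal axis) of the 8 tested cytokine genes in the 3 comparisons, from the edgeR fit, with bars for 95% intervals and filled circles for an adjusted p under 0.05. Csf1, Flt3l and Tgfb1 were higher in BCR-ABL1 lines than in both other groups, and in SFPQ-ABL1 against MSCV each circle is open.

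Transcripts of IL-3 itself were not detected in any line that grew without the factor. Il3 (ENSMUSG00000018914, mm10, chr11:54265303-54267277, minus strand) had 0 counts in each of the 4 BCR-ABL1 and 4 SFPQ-ABL1 lines, out of 569668062 gene counts in those 8 libraries. Over the 8 lines together, the floor of 3 counts stands at 0.00527 CPM. The 95% Poisson interval of a count of 0 reaches up to 0.00648 CPM. Among vector lines, line 2 had 2 counts (95% Poisson interval 0.242 to 7.22) and lines 1, 3 and 4 had 0. All groups therefore sit at or under the floor, and no fold is given. With a single line above 0, an exact permutation test cannot separate the groups, and no p is given. These counts limit RNA in growing cultures and say nothing of protein.

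Csf2, the gene of GM-CSF, which lies 17.6 kb from Il3 between the starts and shares the beta chain of its receptor, was as low. Csf2 (chr11:54247271-54249667, minus strand) had 1 count in MSCV line 4, 1 count in BCR-ABL1 line 4 and 0 in the other 10 lines. As for Il3, these counts are too few for a test between groups. An antisense gene, Gm12223, shares 12% of the exon bases of Csf2 and held 2 counts in all, and whether counting used strand is not given in the sources used here. Acsl6, an acyl-CoA synthetase gene and the other protein-coding neighbour of Il3, held 5 counts over the 12 lines. The region around both genes was thus almost without counts in cells with and without a fusion.

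The 250 bases before the start of Il3 in RefSeq's promoter table (GRCm38.p6) are shown, 5′ to 3′ on the gene's strand. Beside them stand those of Csf1, Lif and Il6, which were picked because their windows held a match to a motif below. Windows were read for 8 of the genes, not for Osm and Tslp. They were searched on both strands for motifs of factors named for cytokine promoters: STAT (TTCNNNGAA), AP-1 (TGANTCA), kB (GGNNTTTCC) and the ATF4 composite (TGATGNAAT). Capitals mark a match, and none of the matches shown overlap.
Il3 (chr11:54267280-54267529, minus strand): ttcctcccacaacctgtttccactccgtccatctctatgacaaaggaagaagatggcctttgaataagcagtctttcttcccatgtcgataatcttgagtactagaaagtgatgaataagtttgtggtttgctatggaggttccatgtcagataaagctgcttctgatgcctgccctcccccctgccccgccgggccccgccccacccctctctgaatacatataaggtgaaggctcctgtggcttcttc
Csf1 (chr3:107760470-107760719, minus strand): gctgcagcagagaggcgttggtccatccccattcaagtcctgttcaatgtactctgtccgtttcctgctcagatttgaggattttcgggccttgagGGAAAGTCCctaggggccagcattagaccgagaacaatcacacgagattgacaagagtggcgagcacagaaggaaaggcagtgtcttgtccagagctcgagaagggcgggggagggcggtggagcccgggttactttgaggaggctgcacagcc
Lif (chr11:4257318-4257567, plus strand): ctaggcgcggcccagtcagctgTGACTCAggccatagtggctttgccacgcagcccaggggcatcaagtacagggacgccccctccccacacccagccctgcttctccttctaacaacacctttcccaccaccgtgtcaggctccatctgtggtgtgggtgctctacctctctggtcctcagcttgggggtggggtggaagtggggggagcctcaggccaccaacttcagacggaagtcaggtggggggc
Il6 (chr5:30012864-30013113, plus strand): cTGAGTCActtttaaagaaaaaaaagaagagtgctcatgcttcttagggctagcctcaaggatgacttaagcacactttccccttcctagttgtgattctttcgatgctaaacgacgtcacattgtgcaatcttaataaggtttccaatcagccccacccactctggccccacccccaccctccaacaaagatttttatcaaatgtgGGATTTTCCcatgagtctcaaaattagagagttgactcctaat
Il3 held no match to any of the 4 motifs, and neither did Csf2, Flt3l, Tgfb1 or the windows of Il4. Windows without a match thus belong both to Il3 and Csf2 and to the expressed genes Flt3l and Tgfb1. The Csf2 window, chr11:54249900-54250149, does not reach the start of Csf2 at 54249667 given above, and the bases between were not searched. Csf1 held a kB match 154 to 146 bases before its start. Lif held an AP-1 match at 228 to 222 bases. Il6 held an AP-1 match at 249 to 243 bases and a kB match at 43 to 35 bases. Of 32851 windows of this length, 7.02% held a STAT match, 6.75% an AP-1 match, 4.93% a kB match and 0.816% an ATF4 composite match. A match describes letters in the window and no binding was measured.

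Csf1 and Flt3l encode growth factors of myeloid and early progenitor cells, and both rose in BCR-ABL1 lines. Csf1 (ENSMUSG00000014599, chr3:107741048-107760469, minus strand) encodes M-CSF, the survival factor of macrophages. Its level was 7.65, 9.68, 4.91 and 5.56 CPM in MSCV lines 1 to 4. BCR-ABL1 lines 1 to 4 had 13.5, 33.5, 17.3 and 15.3 CPM. SFPQ-ABL1 lines 1 to 4 had 1.19, 4.55, 7.23 and 2.34 CPM. Every BCR-ABL1 line was above every other line, line 2 most, whereas the SFPQ-ABL1 and MSCV lines overlapped and the SFPQ-ABL1 lines spread 6.06-fold. Csf1 was 2.86-fold higher in BCR-ABL1 than in MSCV lines (log2 fold change 1.52 ± 0.46 SE, adjusted p = 0.0222). That call was lost without MSCV line 3 (adjusted p = 0.0624), MSCV line 4 (0.0598) or BCR-ABL1 line 2 (0.0828), with a value of 2.20-fold or more each time. In SFPQ-ABL1 lines it was 5.19-fold lower than in BCR-ABL1 lines (95% interval 2.56 to 10.5, adjusted p = 0.00309), a call kept under all 20 alternatives run. Against MSCV, its log2 fold change of -0.86 ± 0.46 in SFPQ-ABL1 lines did not pass (adjusted p = 0.337).

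Flt3l encodes the ligand of the receptor tyrosine kinase FLT3, a factor for early progenitors and dendritic cells. Flt3l (ENSMUSG00000110206, chr7:45129788-45136432, minus strand) had 15.8, 13.5, 14.0 and 14.1 CPM in MSCV lines 1 to 4. The BCR-ABL1 lines had 32.5, 31.4, 39.7 and 41.7 CPM, and the SFPQ-ABL1 lines 13.5, 16.8, 16.8 and 20.7. The lowest BCR-ABL1 line was above the highest of the other 8, and SFPQ-ABL1 and MSCV lines overlapped. In BCR-ABL1 lines Flt3l was 2.53-fold higher than in MSCV lines (95% interval 2.07 to 3.11, adjusted p = 3.46e-05) and in SFPQ-ABL1 lines 2.14-fold lower than in BCR-ABL1 lines (1.75 to 2.63, adjusted p = 0.00021). Against MSCV, SFPQ-ABL1 lines differed by a log2 fold change of 0.24 (95% interval -0.05 to 0.53, adjusted p = 0.365). The level varied least of all members within the MSCV group, by a coefficient of variation of 7.0%. Gm45713, a predicted gene on the same strand, shares 22.1% of the exon bases of Flt3l and held 0 counts, so the split of reads between them is uncertain.

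Oncostatin M, LIF and IL-6 belong to the family that signals through gp130, and of these 3 genes Osm rose in BCR-ABL1 against MSCV. Osm (ENSMUSG00000058755, chr11:4236420-4241026, plus strand) is a known target of STAT5 and encodes an inflammatory and haematopoietic cytokine. Its level was 52.4, 54.9, 37.3 and 25.0 CPM in MSCV lines 1 to 4. In BCR-ABL1 lines it was 55.0, 142, 129 and 103 CPM, and in SFPQ-ABL1 lines 54.3, 56.0, 93.3 and 94.6 CPM. BCR-ABL1 line 1 lay just above the highest MSCV line, while lines 2 to 4 lay well above it. SFPQ-ABL1 line 1 lay within the MSCV range, line 2 just above it, and lines 3 and 4 well above it. Osm was 2.53-fold higher in BCR-ABL1 than in MSCV lines (log2 fold change 1.34 ± 0.31 SE, adjusted p = 0.00563). In SFPQ-ABL1 lines the log2 fold change against MSCV was 0.81 (95% interval 0.15 to 1.48, adjusted p = 0.18), and against BCR-ABL1 -0.52 (-1.19 to 0.14, adjusted p = 0.229).

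Lif encodes leukaemia inhibitory factor, which keeps mouse embryonic stem cells undifferentiated and acts on many tissues. Lif (ENSMUSG00000034394, chr11:4257557-4272514, plus strand) had 54.5, 51.3, 28.6 and 16.2 CPM in MSCV lines 1 to 4. BCR-ABL1 lines had 28.7, 75.1, 59.5 and 41.7 CPM, and SFPQ-ABL1 lines 21.2, 87.3, 51.0 and 73.3 CPM. All groups overlapped, and lines of the same group differed by up to 4.12-fold. The log2 fold change against MSCV was 0.44 (95% interval -0.51 to 1.40, adjusted p = 0.476) in BCR-ABL1 lines and 0.63 (-0.33 to 1.58, adjusted p = 0.479) in SFPQ-ABL1 lines. Rises of up to 2.63-fold and 2.99-fold lie inside those intervals.

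Il6 encodes interleukin-6, a mediator of inflammation and a growth factor of plasma cells. Il6 (ENSMUSG00000025746, chr5:30013114-30019981, plus strand) had 43.0, 30.6, 13.5 and 15.6 CPM in MSCV lines 1 to 4. BCR-ABL1 lines had 19.5, 62.7, 41.5 and 62.2 CPM, and SFPQ-ABL1 lines 43.5, 46.6, 78.1 and 67.2 CPM. The lowest SFPQ-ABL1 line lay just above the highest MSCV line, and BCR-ABL1 line 1 lay within the MSCV range. Neither difference passed the test: the log2 fold change against MSCV was 1.2 in SFPQ-ABL1 lines (95% interval 0.33 to 2.06, adjusted p = 0.137) and 0.86 in BCR-ABL1 lines (fold 1.81, 95% interval 0.997 to 3.28, adjusted p = 0.118). Without MSCV line 1, Il6 passed in BCR-ABL1 against MSCV (log2 fold change 1.23, adjusted p = 0.0355), and without BCR-ABL1 line 1 it did too (1.10, adjusted p = 0.0358).

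Osm and Lif lie side by side on chromosome 11, with 21.1 kb between their starts, and moved together across lines as a description. Over the 12 lines the log2 CPM of Osm and Lif had a Pearson correlation of 0.69 (Spearman 0.66), and 0.74 once each group's mean was removed. Castor1, a neighbour 18.2 kb from the start of Osm that encodes an arginine sensor of the mTORC1 pathway, correlated with Osm at 0.84 and with Lif at 0.87. Its own level ran from 1.32 CPM in MSCV line 4 to 18.1 in BCR-ABL1 line 2. Tbc1d10a, the other neighbour of Osm within 50 kb, correlated with it at -0.31. Il6, on another chromosome, correlated with Osm at 0.79 over all lines and at 0.84 with group means removed. These values share libraries and depth and are descriptions only.

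**Figure D3:**
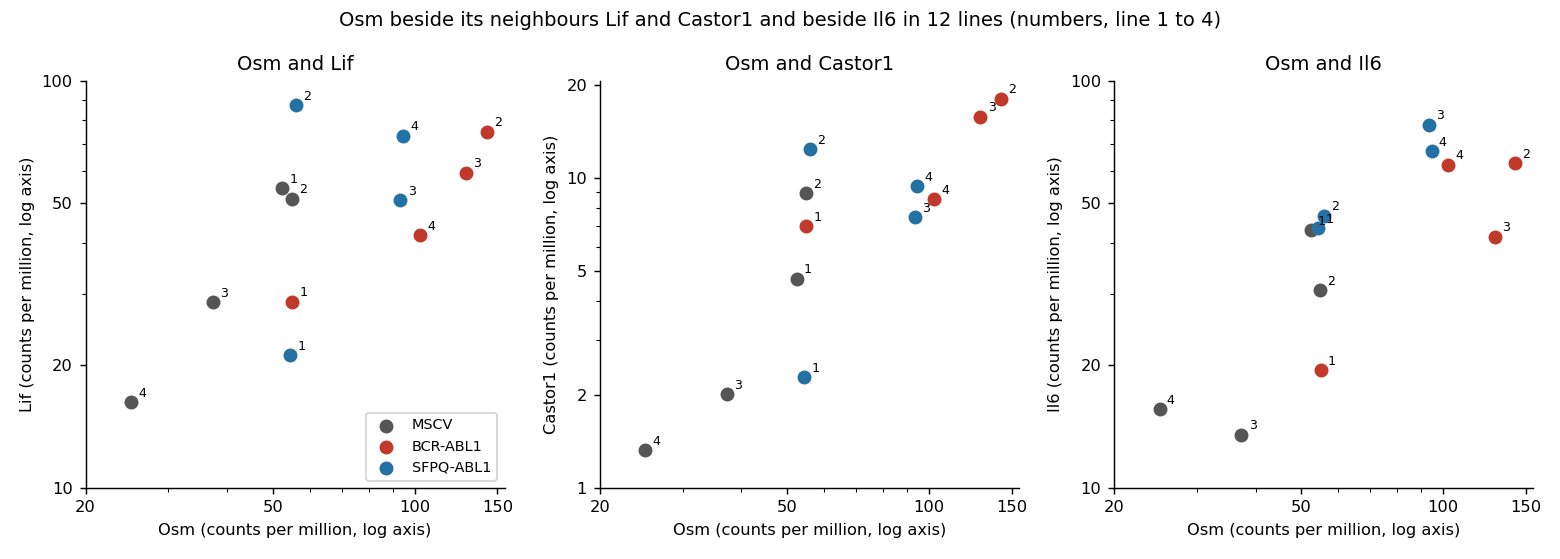
Level of Lif, Castor1 and Il6 (vertical axes) against Osm (horizontal axis) in the 12 lines, all in CPM on log axes, with colours for groups and numbers for lines. MSCV line 4 is lowest for Osm, Lif and Castor1, and BCR-ABL1 line 2 is highest for Osm and Castor1.

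Tgfb1 rose in BCR-ABL1 lines, while its mean was 137 CPM in both SFPQ-ABL1 and vector lines. It encodes TGF-beta1, secreted as a latent complex that must be freed before it can bind its receptors, after which SMAD proteins act on target genes, often to hold back the growth of B cells. Tgfb1 (ENSMUSG00000002603, chr7:25687002-25705077, plus strand) had 166, 137, 116 and 127 CPM in MSCV lines 1 to 4. The BCR-ABL1 lines had 303, 234, 282 and 307 CPM, and the SFPQ-ABL1 lines 119, 163, 131 and 135 CPM. In the exon table, BCR-ABL1 line 4 had 173 counts on the exon at 25696918 to 25696995, where the other lines of its group had 23 to 44. On the first exon it had 472, where they had 395 to 660. The cause of this uneven profile was not tested. The BCR-ABL1 lines lay apart from all others, and the SFPQ-ABL1 and MSCV lines covered nearly the same range. Tgfb1 was 2.06-fold higher in BCR-ABL1 than in MSCV lines (95% interval 1.69 to 2.51, adjusted p = 0.000118). In SFPQ-ABL1 lines it was 2.06-fold lower than in BCR-ABL1 lines (1.69 to 2.51, adjusted p = 0.000244). For SFPQ-ABL1 against MSCV lines the log2 fold change was 0.00 with a 95% interval of -0.28 to 0.28, so a change above 1.22-fold lies outside that interval.

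Genes that store, free and answer TGF-beta were read from lists. Here and for later lists, the share of all genes called was 32.1% in BCR-ABL1 against MSCV. It was 1.79% in SFPQ-ABL1 against MSCV and 26.0% in SFPQ-ABL1 against BCR-ABL1. A count near these shares does not set a list apart. Of 9 tested genes of latency and activation, 2 rose and 3 fell in BCR-ABL1 against MSCV. Lrrc32, whose product GARP holds latent TGF-beta at the cell surface, rose from 0.900 ± 0.597 to 3.41 ± 1.92 CPM (SD, n = 4, adjusted p = 0.0106). Itgav, an alpha chain of integrins that can free it, rose from 51.1 ± 4.68 to 75.6 ± 21.9 CPM (adjusted p = 0.0234). Itgb6 and Itgb8, the integrin beta chains of the list, held 1 and 4 counts over the 12 lines. Ltbp4, a latent TGF-beta binding protein, fell from 63.6 ± 9.05 to 42.7 ± 5.67 CPM (adjusted p = 0.00486), and Bmp1, a protease gene, and Ltbp3 fell as well (adjusted p = 0.017 and 0.0294). Of 11 tested response genes, 1 rose, the corepressor Tgif1 (1.60-fold, adjusted p = 0.0117), and 1 fell, Ldlrad4, an inhibitor of SMAD activation (1.60-fold lower, adjusted p = 0.0201). DESeq2 called 5 of the response genes in this comparison and limma-voom 4, and 5 had an unadjusted p under 0.05 with edgeR. The median log2 fold change of the response list was 0.11, against -0.01 over all genes. In SFPQ-ABL1 against MSCV, edgeR called 0 of either list, with 1 of each at an unadjusted p under 0.05; DESeq2 called 1 latency gene and no response gene, and limma-voom 0 of both. In SFPQ-ABL1 against BCR-ABL1, Ltbp3 was higher among the latency genes, where DESeq2 called 2, and among the response genes Ldlrad4 was higher and Tgif1 and Ski were lower.

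Tslp and Il4 belong to type-2 immunity, and both were near 1 CPM. Tslp encodes thymic stromal lymphopoietin, an IL-7-like cytokine of epithelial cells that supports early B cells. Tslp (ENSMUSG00000024379, chr18:32815383-32819797, plus strand) had 112, 91, 116 and 153 counts in MSCV lines 1 to 4, or 1.41, 1.22, 1.53 and 2.35 CPM. The BCR-ABL1 lines had 0.350, 0.384, 0.288 and 0.558 CPM, and the SFPQ-ABL1 lines 0.549, 0.598, 0.669 and 1.03 CPM. All 8 fusion lines were below the lowest vector line. Tslp was 4.11-fold lower in BCR-ABL1 than in MSCV lines (95% interval 2.64 to 6.40, adjusted p = 0.000294). Its value of 2.29-fold lower in SFPQ-ABL1 than in MSCV lines (1.5 to 3.51) had an adjusted p of 0.0527, and it passed with DESeq2 (0.00364), limma-voom (0.0406) or without BCR-ABL1 line 4 (0.048). Between the fusions the log2 fold change was 0.84 (95% interval 0.20 to 1.48, adjusted p = 0.0518), and it passed with DESeq2 (0.0364), without scaling factors (0.0366), or without MSCV line 2 (0.0467), MSCV line 4 (0.0404), BCR-ABL1 line 4 (0.0319), SFPQ-ABL1 line 1 (0.0492), or both BCR-ABL1 line 4 and SFPQ-ABL1 line 2 (0.0324). In the exon table, 76 of the 77 counts on distinct Tslp exons lay on its last 2 exons and 1 on the first 3. The first 3 hold 197 of the 1331 bases. The last 2 belong to Tslp-202, a transcript with a retained intron, and contain exons of the coding transcript Tslp-201. Which transcript the counts come from was not tested. Wdr36, its protein-coding neighbour, ran the other way, from 70.7 ± 7.10 CPM in MSCV to 102 ± 2.90 in BCR-ABL1 lines (SD, n = 4), and correlated with Tslp at -0.91 over the 12 lines.

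Il4 encodes interleukin-4, a cytokine made by type-2 T cells, basophils and mast cells. Il4 (ENSMUSG00000000869, chr11:53602982-53618669, minus strand) had 1.59, 2.14, 1.38 and 2.07 CPM in MSCV lines 1 to 4. The BCR-ABL1 lines had 1.04, 1.10, 0.790 and 1.47 CPM, and the SFPQ-ABL1 lines 1.42, 1.51, 2.06 and 3.47 CPM. SFPQ-ABL1 line 4 was the highest line, and all groups overlapped. Il4 was 1.92-fold higher in SFPQ-ABL1 than in BCR-ABL1 lines (95% interval 1.23 to 3.0, adjusted p = 0.0346), a call lost in 7 of 20 alternatives. Of these, leaving out SFPQ-ABL1 line 4 gave an adjusted p of 0.122, SFPQ-ABL1 line 3 0.0685, and BCR-ABL1 lines 1, 2 and 3 0.0701, 0.0734 and 0.0991. The call was also lost with limma-voom. Against MSCV, the log2 fold change was -0.71 in BCR-ABL1 lines (adjusted p = 0.0887, and 0.0424 without SFPQ-ABL1 line 4) and 0.23 in SFPQ-ABL1 lines (adjusted p = 0.711). Few of the counts can be placed on the coding exons. The exon table held 5.03% of the gene's count, and 61 of its 68 counts on distinct Il4 exons lay on the last exon of the non-coding transcript Il4-202, at 53602982 to 53603160. Of the exons of the gene's first coding transcript, the 3 that do not lie inside a longer exon held 5 counts over the 12 lines. The other exon, at 53618170 to 53618217, held 0. The exon with most counts begins 1014 bases beyond the end of Kif3a, a kinesin gene on the other strand. Kif3a was itself lower in BCR-ABL1 than in MSCV lines (log2 fold change -0.44, adjusted p = 0.0229) and correlated with Il4 at 0.67 over the 12 lines. The part of Kif3a reads in the Il4 count was not tested. Il13, the neighbouring type-2 cytokine gene, had 0.940 ± 0.495 CPM in MSCV, 1.51 ± 0.957 in BCR-ABL1 and 2.45 ± 0.710 in SFPQ-ABL1 lines (SD, n = 4). It was not called with edgeR.

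Levels of different genes were compared per kilobase of exon. In MSCV lines the order of mean levels was Tgfb1 (27.1 CPM per kb), Osm (18.7), Il6 (10.6), Lif (8.66), Flt3l (3.70), Il4 (1.46), Csf1 (1.32), Tslp (1.22), Il3 (0.0107) and Csf2 (0.00480). Among tested protein-coding genes, Tgfb1 stood at the 85.5th percentile of level per kb and Tslp at the 21.7th. The ranges of neighbours in this order overlapped, except those of Flt3l and Il4 and of Tslp and Il3. Compared within each line, Tgfb1 was also above Osm, Osm above Il6 and Lif above Flt3l in 4 of 4 lines. In BCR-ABL1 lines Tgfb1 (55.8 ± 6.61 CPM per kb, SD, n = 4) and Osm (47.2 ± 16.9) overlapped and reached the 93.9th and 92.4th percentiles. Tgfb1 was above Osm in 2 of those 4 lines. In SFPQ-ABL1 lines the order began with Osm (32.8 ± 9.86), Tgfb1 (27.1 ± 3.66) and Il6 (24.2 ± 6.84), which overlapped, and Lif and Flt3l followed. With the longest transcript as the length, Tgfb1 came first in all 3 groups and did not overlap Osm, at 53.2 CPM per kb against 32.8 in SFPQ-ABL1 lines. For Tgfb1 that length was 2573 bases, the same as its exon at 25688890 to 25691462. In the exon table this exon held 189 counts over the 12 lines, where the first exon held 3864. It is also part of the 5042 bases of exon used for the first order, so the place of Tgfb1 depends on the length chosen.

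Whether the cells could hear these ligands was read from 18 receptor genes. For oncostatin M, LIF and IL-6 the receptor chains were nearly without counts: over the 12 lines, Osmr had 8 counts, Lifr 5, Il6ra 4 and the shared chain Il6st 10. Flt3, the receptor of FLT3 ligand, had 23 counts, and Csf1r, the receptor of M-CSF, 6 to 52 counts a line. The TSLP receptor had its private chain Crlf2 at 27.0 ± 3.17 CPM in MSCV lines (SD, n = 4), while Il7r, the other chain, was at 0 in all 12 lines. For GM-CSF the private chain Csf2ra had 35 counts over the 12 lines. Of the 4 ligand genes that rose in BCR-ABL1 lines, Osm, Flt3l and Csf1 thus stood beside a receptor chain with few counts, and Tgfb1 did not.

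Complete receptors were found for IL-3, TGF-beta1 and IL-4. Il3ra, the IL-3-specific chain, had 85.3 ± 5.34 CPM in MSCV lines, 44.5 ± 4.28 in BCR-ABL1 and 57.5 ± 3.54 in SFPQ-ABL1 lines (SD, n = 4), and was called as lower in both fusion groups and, in BCR-ABL1 lines, lower than in SFPQ-ABL1 lines (adjusted p = 0.00838). The beta chain Csf2rb stood at 1477 ± 496, 865 ± 274 and 916 ± 302 CPM in the same order. It was not called with edgeR (adjusted p = 0.0651 in BCR-ABL1 against MSCV). Its paralog Csf2rb2, whose reads may be shared with it, was 2.04-fold lower in BCR-ABL1 than in MSCV lines (adjusted p = 0.0345). Tgfbr1, the signalling chain of the TGF-beta receptor, had 54.1 ± 7.49, 67.8 ± 10.9 and 63.9 ± 2.76 CPM. Tgfbr2, the ligand-binding chain, had 70.6 ± 8.21, 66.2 ± 5.18 and 62.4 ± 3.63 CPM. Neither was called with edgeR, Tgfbr1 at an adjusted p of 0.0554 in BCR-ABL1 against MSCV. The coreceptor Tgfbr3 stayed below 7 CPM in every line and was not called with edgeR. Il4ra rose 1.95-fold in BCR-ABL1 against MSCV (52.0 ± 7.23 to 102 ± 21.4 CPM, adjusted p = 0.00757). Il2rg, its partner, was 1.62-fold lower in SFPQ-ABL1 than in BCR-ABL1 lines (adjusted p = 0.00973), and Il13ra1, the alternative partner, was below 1 CPM. Of the 11 receptor genes tested, 1 rose and 3 fell in BCR-ABL1 against MSCV with edgeR, where 32.1% of all genes were called. The third that fell was Crlf2 (1.40-fold lower, adjusted p = 0.032). DESeq2 called 6 of the 11 there and limma-voom 4. Il3ra was the 1 that fell in SFPQ-ABL1 against MSCV (adjusted p = 0.0115). In SFPQ-ABL1 against BCR-ABL1, 1 was higher and 1 lower with edgeR, while DESeq2 and limma-voom called 3 each.

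**Figure D4:**
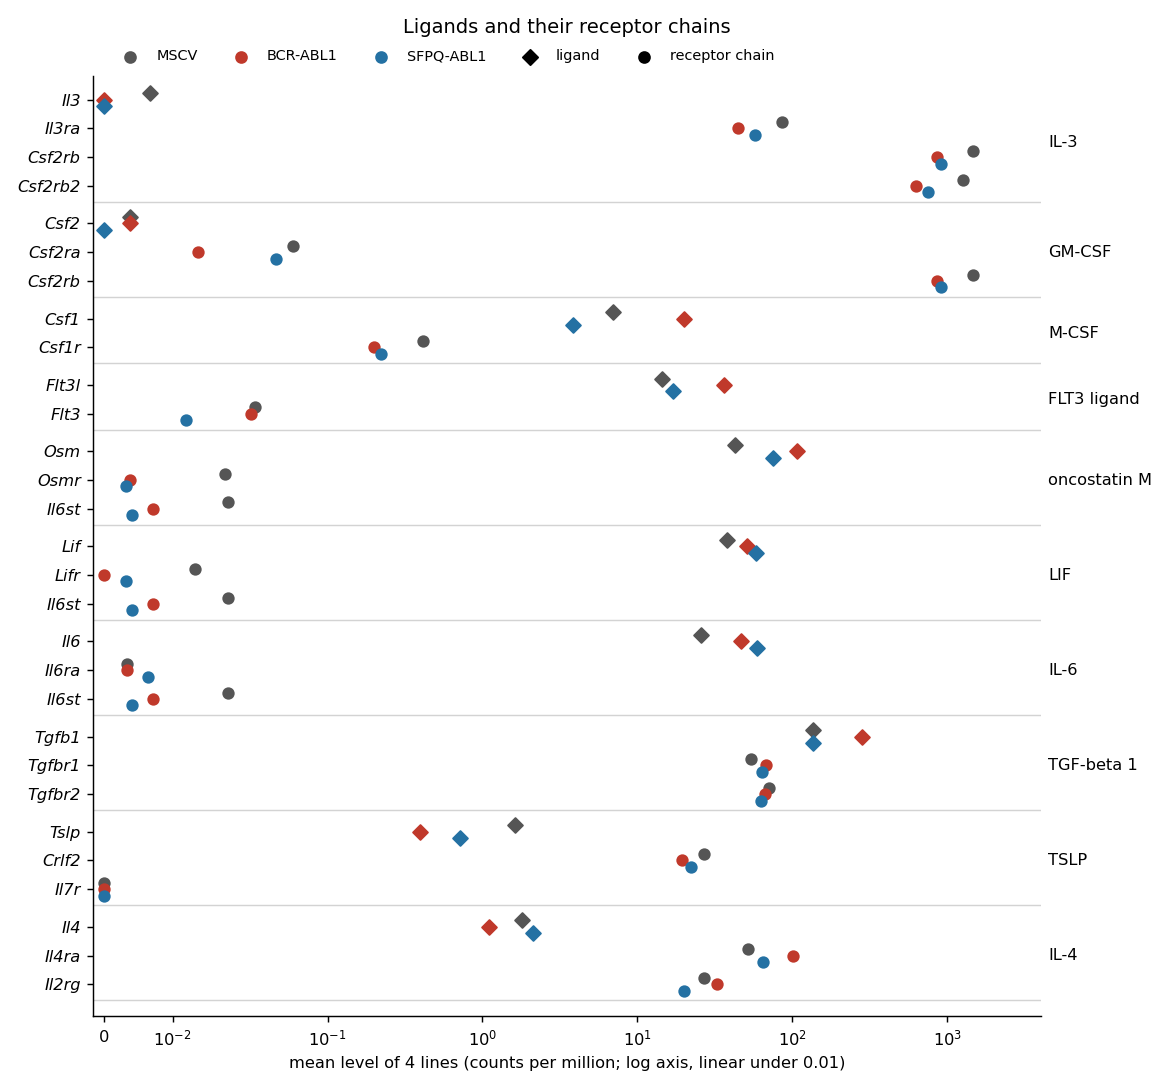
Mean level of each ligand (diamonds) and its receptor chains (circles) over the 4 lines of each group, in CPM on a log axis with a linear part near 0. Il3 and Csf2 are near 0 beside Csf2rb at 865 or above, and Osm, Lif, Il6 and Flt3l stand at 14.3 or above beside Osmr, Lifr, Il6ra, Il6st and Flt3 at 0.0339 or below.

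Other cytokine genes were read from a list of 41, of which 17 passed the filter. In BCR-ABL1 against MSCV 4 rose and none fell with edgeR, while DESeq2 called 7 and limma-voom 4. Of all genes tested, edgeR called 32.1% there. Lta, the gene of lymphotoxin alpha, rose from 0.0438 ± 0.0214 to 1.13 ± 0.484 CPM (SD, n = 4, adjusted p = 0.000269). Il23a, a subunit of interleukin-23, rose from 0.402 ± 0.179 to 6.54 ± 4.10 CPM (adjusted p = 0.0004). Tnf, the gene of tumour necrosis factor, rose from 2.16 ± 1.32 to 9.87 ± 3.07 CPM (adjusted p = 0.0101), and Il27 rose 2.62-fold (adjusted p = 0.00647). The median of the list was 0.07, close to that of all genes. In SFPQ-ABL1 against MSCV edgeR called 0 of the 17, with 6 at an unadjusted p under 0.05, and DESeq2 called 3 and limma-voom 0. Against BCR-ABL1, SFPQ-ABL1 lines had less Il23a, Tnf, Lta, Il34 and Tnfsf13b and more Ctf1, which is 5 lower and 1 higher. Kitl, Il33, Ifng, Il9, Il17a and Il22, named after their values were seen, were at 0 counts in all 12 lines. The floor of 3 counts over the lines together stands at 0.00346 CPM.

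Genes that act on cytokine RNA and cytokine promoters changed in part. Of 22 tested transcription factor genes, 11 rose and 3 fell in BCR-ABL1 against MSCV, with a median log2 fold change of 0.33. Of all genes tested, 15.8% were called as higher there and 16.3% as lower. The AP-1 gene Fosl1 rose from 0.210 ± 0.0119 to 1.30 ± 0.243 CPM (SD, n = 4, adjusted p = 0.000135), and the ETS gene Ets2 from 25.1 ± 3.18 to 50.5 ± 9.17 (adjusted p = 0.000146). Fosl2, another AP-1 gene, rose from 29.1 ± 6.47 to 90.0 ± 27.9 CPM (adjusted p = 0.000373). Runx1, a haematopoietic factor that binds cytokine promoters, fell from 216 ± 18.2 to 133 ± 10.1 CPM (adjusted p = 0.000124). Stat5a and Stat5b, named after their values were seen because IL-3 signals through them, fell too (adjusted p = 0.00368 and 0.000452). Nfkb1 rose in SFPQ-ABL1 against MSCV (adjusted p = 0.0207), and Junb and Gata2 fell (adjusted p = 0.0315 and 0.0474), while DESeq2 called 5 there. In SFPQ-ABL1 against BCR-ABL1, 3 were higher and 9 lower, with the smallest adjusted p for Cebpb (log2 fold change -1.30, adjusted p = 0.000166) and Junb (-1.85, adjusted p = 0.000287), while Fos (-3.18) and Fosl1 (-2.16) fell further. Of 13 genes for RNA-binding proteins and partners of the deadenylase that act on cytokine RNA, 1 rose in BCR-ABL1 against MSCV, Tial1 (adjusted p = 0.00716), where DESeq2 and limma-voom called 2 each. In SFPQ-ABL1 against BCR-ABL1, 2 were higher and 4 lower, among them Zfp36, the gene of tristetraprolin (17.8 ± 6.88 CPM in BCR-ABL1 and 5.81 ± 1.72 in SFPQ-ABL1 lines, adjusted p = 0.00178). In SFPQ-ABL1 against MSCV edgeR called 0 of the 13, with 5 at an unadjusted p under 0.05, and DESeq2 called 2 and limma-voom 0.

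Copies of ATTTA, the pentamer of AU-rich elements that mark cytokine messages for decay, were counted in the RNA of the members. Each of the 9 members with a 3′ untranslated region of 50 bases or more held at least 1 copy, as 63.2% of all genes did, in the GENCODE transcript with the longest coding sequence. Csf2 had 9 in 317 bases, Il6 had 6 in 427 and Osm had 6 in 1017. Lif had 7 in 3180 bases and Csf1 4 in 2111. The other members held 1 or 2 copies: Tslp had 2 in 686 bases, Il4 2 in 104, Tgfb1 1 in 135 and Il3 1 in 101. The median density of the members was 7.41 per kb, which is that of the single copy in Tgfb1, against 1.19 over all genes measured, with Csf1 the lowest at 1.89.

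Shedding enzymes cut membrane-held cytokines such as M-CSF, FLT3 ligand and TNF from the cell. Of 8 tested, Rhbdf2 and Adam9 rose and Adam17, the main sheddase, and Adam15 fell in BCR-ABL1 against MSCV. Of all genes tested, 32.1% were called there. Rhbdf2, which carries ADAM17 to the surface, went from 51.7 ± 9.13 to 84.7 ± 7.81 CPM (SD, n = 4, adjusted p = 0.00137), and Adam17 from 179 ± 22.6 to 122 ± 10.8 (adjusted p = 0.00268). Adam19 passed in SFPQ-ABL1 against MSCV with edgeR, from 0.258 ± 0.185 to 4.15 ± 2.89 CPM (adjusted p = 0.0432). There limma-voom called 0 of the 8 and DESeq2 2. In SFPQ-ABL1 against BCR-ABL1, 3 were higher and 2 lower, with Rhbdf2 at 35.7 ± 4.75 CPM.

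Genes most like each member were sought over the 12 lines among 12095 tested protein-coding genes, by the Pearson correlation of log2 CPM. Flt3l was most like Trib3 (0.99), a pseudokinase gene of the integrated stress response, then Angptl6 (0.98) and Gdf15 (0.98). Trib3 ran from 19.7 to 535 CPM, a far wider range than that of Flt3l. Tgfb1 was most like Ccnd2 (0.98), the gene of cyclin D2, then Hmga1b (0.97). Csf1 was most like Dglucy (0.94), Fam3b and Ptp4a2 (both 0.92), and Lif like its neighbour Castor1 (0.87), Akr1c18 and Eef1akmt3. Osm was most like Srd5a3 (0.90), Rab27b and Ccdc126, Il6 like Slc41a2 (0.90), Cdkl3 and Smurf1, and Il4 like Bco2 (0.91), Sfi1 and Zfp119a. Ranking by Spearman correlation kept 2 of the 3 genes for Lif and Il6 and 1 or none for the others. Among the members, Flt3l and Tgfb1 were most alike (0.94), and with each group's mean removed that value was 0.49.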

How the data were processed

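Cytokine RNA levels come from 2 deposited tables of raw counts, per gene and per exon, with 1 column for each of 12 libraries. The authors counted reads on mm10 with Subread and featureCounts, per the submitters' processing notes; tool versions, the annotation, the strand setting and how multiply matching reads were handled: not given in the sources used here. Symbols were matched through GENCODE M21, which held 55230 of the 55471 gene identifiers. Gene counts of all 12 libraries were fitted with edgeR 4.0.16 in R 4.3.3 (filterByExpr, TMM factors, quasi-likelihood test, Benjamini-Hochberg adjusted p under 0.05 over 17197 genes), which shares 1 estimate of the spread. Il3 and Csf2 held too few counts for a test between groups. The test was checked on simulated counts. The exon table, which holds 18% of the gene totals, was used for positions and to set the pair of lines apart. Replicate libraries differed beyond sampling noise in all 18 pairs (chi-square per degree of freedom 33.1 or more). The p-values set group differences against the spread between these lines, all from the same established cell line.

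The members and lists were chosen with earlier results of these data known. Named genes were all members, all listed receptors, neighbours with a start within 50 kb, the 3 genes most correlated with each member that had a mean of at least 1 CPM, and up to 4 called genes with the smallest adjusted p of each other list and comparison, of which some are not reported here. Alternatives were DESeq2 1.42.0, limma-voom (limma 3.58.1), other scaling, no filter, fewer libraries and the replicate number as a block.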

Additional observations from a re-analysis of the deposited data

How the results depend on the processing

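The 24 log2 fold changes of the 8 tested cytokine genes were recomputed under 20 alternatives each. Of these 480 values, 443 kept their direction and their side of the threshold, 10 lost a call, 16 gained one and 11 changed sign. Tgfb1, Flt3l, Osm and Tslp in BCR-ABL1 against MSCV, and Csf1, Flt3l and Tgfb1 in SFPQ-ABL1 against BCR-ABL1, kept their calls under all 20. The changes of sign were all in values that were not called. Tgfb1 in SFPQ-ABL1 against MSCV was -2.57e-05 with no filter on low counts and -0.0929 without the pair of lines that stood apart, and ran from -0.10 to 0.11 when 1 line was left out. Il4 in SFPQ-ABL1 against MSCV was -0.11 without SFPQ-ABL1 line 4, with a highest value of 0.38 when another line was left out. Lif in SFPQ-ABL1 against BCR-ABL1 was -0.17 without the pair of lines, -0.0788 without SFPQ-ABL1 line 2 and -0.0125 without BCR-ABL1 line 1, and reached 0.46 when another line was left out. Csf1 in BCR-ABL1 against MSCV ran from 1.14 to 1.72 when 1 line was left out. The number of genes called in SFPQ-ABL1 against MSCV was 308, 1131 with DESeq2, 110 with the 8 libraries compared only, 498 without the pair of lines, and 33 to 467 when 1 line was left out, the lowest without MSCV line 3. The number of cytokine genes called there was 0, and 1 (Tslp) with DESeq2, with limma-voom and without BCR-ABL1 line 4, so leaving out 1 line gave 0 to 1. The cause of these shifts was not tested. No scaling moved the median of all genes by more than 0.07 on the log2 scale. Ranking genes by Spearman correlation changed 1 or more of the 3 genes most like each member.

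Libraries with the same replicate number in 2 groups had correlations of their deviations between -0.01 and 0.38 over 12 pairs. Of these, 7 were over 0.1 and 6 exceeded every correlation with another number. The main fit did not use the numbers to pair the samples. What lines of the same number might share was not tested. With the replicate block, the genes called were 6307 in BCR-ABL1 against MSCV, 726 in SFPQ-ABL1 against MSCV and 5336 in SFPQ-ABL1 against BCR-ABL1, and the cytokine genes called were 6, 1 and 5. The block added Il4 in the first comparison (adjusted p = 0.0322) and Tslp in both others (adjusted p = 0.0121 and 0.0111). Depth limits Il3 and Csf2, for which 3 counts or fewer were seen in every library.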
